A study of Mus musculus with 6 samples.

Results

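Madd and 8 related genes of the DENN family, Dennd1a, Dennd1b, Dennd1c, Dennd3, Dennd4a, Dennd4b, Dennd4c and Dennd5a, were examined in mouse microglia with and without PGC-1α overexpression. They are 9 of the 23462 genes named on the array and were found through the transcript accession given for each probe, which assigned 18 of 56605 probes to them. The genes were selected on the array signal itself, chosen by the difference between the groups at Madd, so all differences of these genes are given as descriptions and support nothing by themselves. Of the 9 genes, 7 had at least 1 probe bright enough to be tested, while Dennd1b and Dennd3 had none.

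Microglia were taken from male mice at 10 weeks of age on a C57BL/6 background through magnetic selection for the surface receptor P2RY12. The control group, PGC-1αf/f, carried a loxP-flanked PGC-1α construct together with eGFP and had no Cre. The mPGC-1α group carried the same construct together with a tamoxifen-inducible Cre recombinase in the Cx3cr1 locus, which is active in microglia and in other cells that use Cx3cr1, and is described as overexpressing PGC-1α after induction. The methods do not say for these arrays whether the littermate controls were given tamoxifen. Each group held 3 arrays. The labels number them without saying whether each is a separate animal, so p-values measure the spread between these samples.

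DENN domains are found in proteins that switch on Rab GTPases, the small proteins that mark membrane compartments and direct vesicle traffic. A DENN protein acts as a guanine nucleotide exchange factor, which means that it helps its Rab to release GDP and take up GTP. Rab traffic serves the secretion, endocytosis and phagocytosis of microglia. Madd activates Rab3 and Rab27, which act in the release of secretory vesicles, and also binds the death domain of TNF receptor 1.

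Signals are given as log2 intensity minus the 75th percentile of the array, so that 0 is the brightness of the spot at this percentile. These values cannot be compared between probes. The percentile ranged from 1012 to 2138 intensity units over the 6 arrays, and between 27025 and 30272 of 59305 spots were well above background. PGC-1αf/f replicate 3 stood apart, correlating with the remaining arrays at 0.928 on average, where the others had averages of 0.962 to 0.972. On mPGC-1α replicate 3, 0 of 7 Y-linked probes were well above background, against 5 or 6 on the other arrays, although all mice are labelled male. All PGC-1αf/f arrays lay in slide row 1 and all mPGC-1α arrays in slide row 2, so row and group cannot be told apart. The brighter probe of Ppargc1a, which encodes PGC-1α, was higher by 0.80 in mPGC-1α microglia (SE 0.35, limma adjusted p 0.306). The dimmer probe was higher by 0.59 (SE 0.38, limma adjusted p 0.445). The groups overlapped at both, and without PGC-1αf/f replicate 3 the differences were 0.44 and 0.26. Of the 12 microglial markers examined, 6 had a tested probe with a value on every array, and their mean signal was 3.79 to 3.997 in PGC-1αf/f and 3.62 to 3.78 in mPGC-1α microglia. P2ry12, Tmem119, Sall1, Gpr34 and Fcrls were among those without such a probe.

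To determine whether Madd RNA differed, its 3 probes, which all carry the transcript accession NM_145527, were compared separately. They did not give the same answer. The probe A_52_P54849 gave -1.86, -2.03 and -1.82 in the PGC-1αf/f controls and -3.07, -3.34 and -3.15 in mPGC-1α microglia. All 3 mPGC-1α arrays were below all 3 PGC-1αf/f arrays, and the gap between the groups was much wider than the spread within either. The mean was -1.90 ± 0.11 (SD, n = 3) in PGC-1αf/f and -3.19 ± 0.14 (SD, n = 3) in mPGC-1α microglia. This is a difference of -1.28 on the log2 scale (SE 0.14, 95% interval -1.61 to -0.95), or 2.44-fold lower in mPGC-1α microglia. The limma adjusted p over all probes was 0.0477, just inside the threshold of 0.05. The call rested on every array and on the processing. Without any single array the limma adjusted p lay between 0.0649 and 0.257, and it was past the threshold in 2 of 16 alternatives. Leaving out PGC-1αf/f replicate 3 gave -1.24 (limma adjusted p 0.0649), and leaving out mPGC-1α replicate 3 gave -1.30 (limma adjusted p 0.176). Within slide column 1 it was -1.21 and within column 2 it was -1.31.

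The brighter probe of Madd, A_52_P208471, gave 1.67, 2.03 and 2.22 in the controls and 1.52, 1.79 and 1.61 in mPGC-1α microglia. These groups overlapped, since mPGC-1α replicate 2 was above PGC-1αf/f replicate 1. The means were 1.97 ± 0.28 and 1.64 ± 0.14 (SD, n = 3 each). Their difference was -0.33 (SE 0.18, 95% interval -0.76 to 0.09), or 1.26-fold lower. Without PGC-1αf/f replicate 3 it was -0.21, and it was -0.15 and -0.24 within slide columns 1 and 2. The interval holds both no change and a fall as large as -0.76, but not the fall of -1.28 seen at the other probe. The remaining probe, A_52_P357309, lay between -6.50 and -5.37 on the 6 arrays and never well above background, so it gives no direction.

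**Figure D1:**
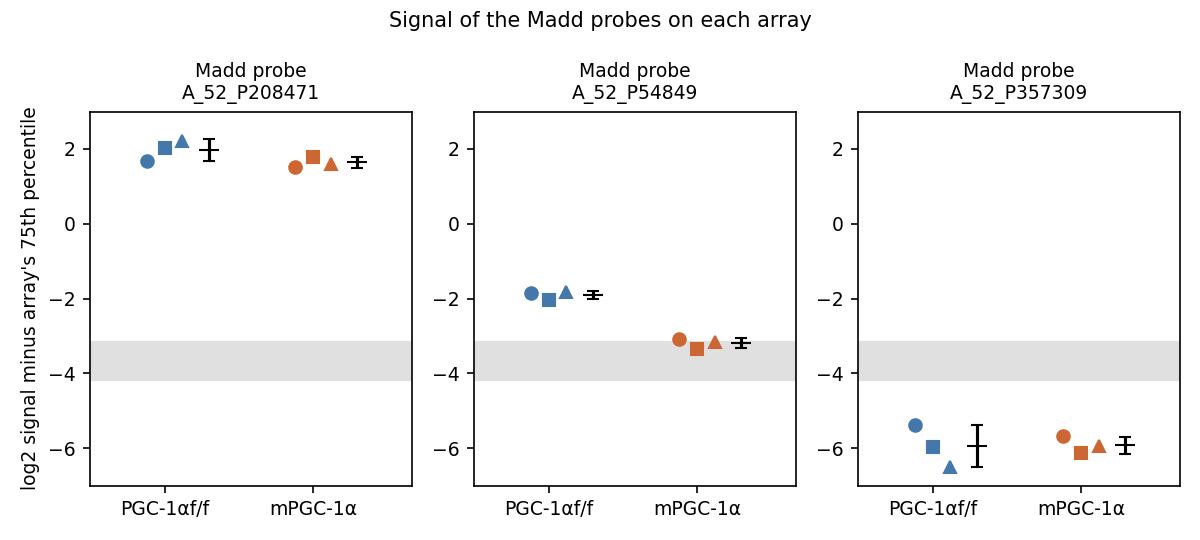
Signal of the 3 Madd probes on each array, as log2 intensity minus the 75th percentile of the array. Circles, squares and triangles are replicates 1, 2 and 3 of PGC-1αf/f (blue) and mPGC-1α (orange), black marks are the group mean with its SD (n = 3), and the grey band spans the lowest signal called well above background on the 6 arrays, from -4.17 to -3.15. The middle probe separates the groups, with mPGC-1α arrays between -3.34 and -3.07, while the groups overlap at the left probe and all points of the right probe lie below the band.

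Where the probe A_52_P54849 lay relative to background was examined next. Before scaling, its intensity was 279, 380 and 603 units in the controls and 152, 164 and 165 units in mPGC-1α microglia. The dimmest probe well above background on the same arrays had 113 to 119 units in PGC-1αf/f and 114 to 118 units in mPGC-1α microglia. The Madd probe was thus above background on all 6 arrays, yet on the log2 scale it exceeded that lowest signal by 0.37, 0.51 and 0.53 in mPGC-1α against 1.29, 1.75 and 2.34 in PGC-1αf/f microglia. For a dim signal, the size of a fold depends on how background is removed. With normexp on median spot signals, an offset of 50 and quantile normalization together, the difference was -1.08 (limma adjusted p 0.0653). As these were changed at once, the part of background removal alone was not tested. The intensities of the brighter probe, at 3210 to 9974 units, were far from this limit in both groups.

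The disagreement of the probes was then measured within each array, where a shift of the whole array has no effect. The signal of A_52_P54849 minus that of A_52_P208471 was -3.52, -4.06 and -4.05 in PGC-1αf/f and -4.59, -5.13 and -4.76 in mPGC-1α microglia. This distance was wider on every mPGC-1α array than on any PGC-1αf/f array, by 0.95 on average. As a signed difference this is -0.95, and it ran from -1.07 to -0.77 over the other ways of processing the arrays. Of 3382 genes with at least 2 tested probes measured on all arrays, 35 (1.03%) had probes whose differences were at least this far apart. The median distance was 0.158. As Madd was chosen by its difference between the groups, this share does not measure how unusual its distance is. The 3382 genes were also not matched for having a probe near background. Among the other genes examined here, the distance between the tested probes was 0.234 for Dennd4c, 0.147 for Dennd4b and 0.0743 for Dennd1c. For Dennd4a, which is not among the 3382 genes because 1 of its probes lacks an array, it was 0.149. Since both Madd probes carry the same accession, which part of the transcript each one binds was not analysed here, nor were separate isoforms.

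**Figure D2:**
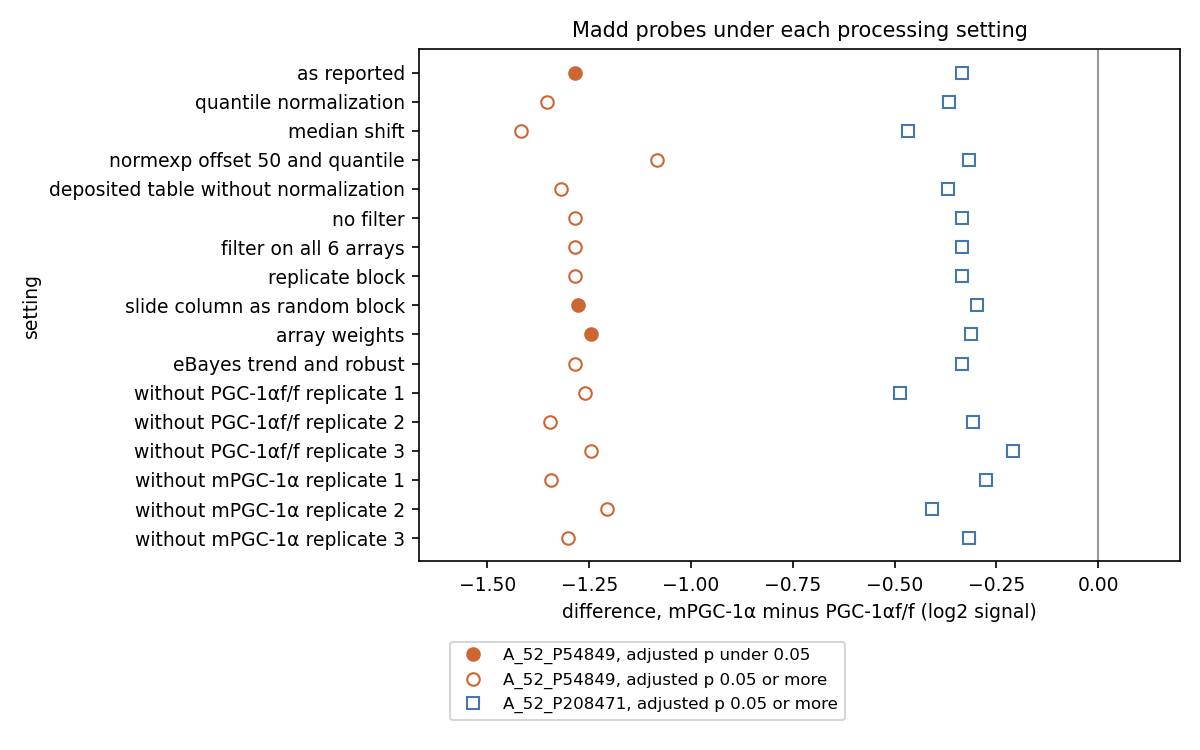
Difference of the tested Madd probes (log2 signal, mPGC-1α minus PGC-1αf/f) under each way of processing the arrays. Orange circles are A_52_P54849, filled where the limma adjusted p was under 0.05, and blue squares are A_52_P208471. The orange points stay between -1.42 and -1.08 and are filled in the analysis as reported, with slide column as random block and with array weights, while the blue points stay between -0.49 and -0.21 and are never past the threshold.

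PGC-1α works as a coactivator of nuclear receptors such as ERRα, which bind DNA through the core motif AGGTCA. To show the DNA around the start of Madd, RefSeq windows of GRCm38.p6 reaching 250 bases before to 50 bases after the annotated start were read, each on the strand of the gene. Madd has 2 such windows, both on the minus strand. The motif occurs in the first of them and is printed in capitals, where it reads TGACCT because it lies on the opposite strand.
Madd chr2:91179272-91179571: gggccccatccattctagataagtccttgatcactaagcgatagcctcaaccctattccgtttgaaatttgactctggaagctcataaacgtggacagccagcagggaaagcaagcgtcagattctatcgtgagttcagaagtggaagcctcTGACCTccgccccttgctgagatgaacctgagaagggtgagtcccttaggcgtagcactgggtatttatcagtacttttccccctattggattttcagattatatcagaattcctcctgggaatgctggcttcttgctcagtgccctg
Madd chr2:91182998-91183297: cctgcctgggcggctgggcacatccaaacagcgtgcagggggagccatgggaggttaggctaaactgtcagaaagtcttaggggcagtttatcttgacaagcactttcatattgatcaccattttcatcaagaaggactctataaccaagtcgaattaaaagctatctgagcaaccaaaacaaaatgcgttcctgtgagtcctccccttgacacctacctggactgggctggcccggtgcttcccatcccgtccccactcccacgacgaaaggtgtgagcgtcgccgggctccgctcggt
Over the 12 windows of the 8 genes with an entry, the motif was found on either strand in 2, 1 of Madd and 1 of Dennd4a, where 5340 of all 32851 windows (16.3%) hold it. The longer form TCAAGGTCA, which contains the shorter motif, was in 0 of the 12 windows and in 139 of all windows (0.423%). These matches describe the letters in these windows, and no binding was analysed here.

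Among the tested probes of the 9 genes, 1 of 12 was past an adjusted p of 0.05 in limma, where 0.0792% of all 25257 tested probes were. It is the Madd probe described above. In 2 of the 11 tested probes with values on all arrays the groups did not overlap, Madd A_52_P54849 and Dennd4a A_51_P468240, where 25.2% of all such probes did not overlap. The mean was lower in mPGC-1α microglia for 10 of the 12 probes, while 50.3% of all tested probes had a lower mean. With the brightest tested probe standing for each gene, the median difference of the 7 genes was -0.08, and -0.19 without PGC-1αf/f replicate 1, -0.18 without mPGC-1α replicate 3 and -0.02 in the absence of PGC-1αf/f replicate 3, beside 0.03 over the 12302 genes with such a probe. As these genes were chosen with this comparison known, nothing follows from the counts.

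**Figure D3:**
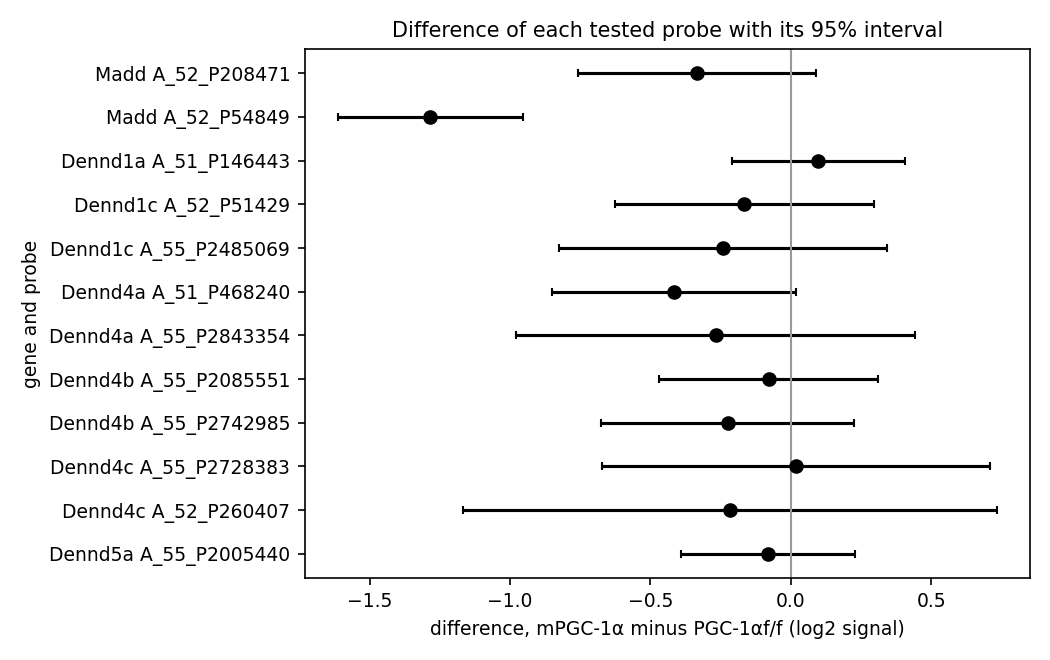
Difference between mPGC-1α and PGC-1αf/f microglia (log2 signal) for each of the 12 tested probes. Points are the fitted differences and bars their 95% intervals. The interval of Madd A_52_P54849, -1.61 to -0.95, lies below 0, and the intervals of the other 11 probes include 0.

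The Dennd4 genes encode exchange factors of Rab10, which acts in transport to the cell surface. Dennd4a A_51_P468240 gave 1.01, 0.91 and 1.41 in PGC-1αf/f and 0.91, 0.65 and 0.53 in mPGC-1α microglia. The groups did not overlap, but only just, as the lowest PGC-1αf/f array and the highest mPGC-1α array were both at 0.91 after rounding. The difference was -0.42 (SE 0.18, 95% interval -0.85 to 0.02), or 1.33-fold lower. It was -0.27 without PGC-1αf/f replicate 3 and -0.10 and -0.27 within slide columns 1 and 2. The other probe of Dennd4a, A_55_P2843354, gave 0.08, 0.52 and 1.02 against 0.38 and 0.17, where the outlier spot of mPGC-1α replicate 3 was left out, and differed by -0.27 (SE 0.29) with overlapping groups, and by -0.50 without PGC-1αf/f replicate 1, -0.03 without PGC-1αf/f replicate 3 and -0.17 without mPGC-1α replicate 2. The Dennd4a window, which lies on the plus strand and holds the second match of the motif found here, is shown for comparison with those of Madd.
Dennd4a chr9:64810761-64811060: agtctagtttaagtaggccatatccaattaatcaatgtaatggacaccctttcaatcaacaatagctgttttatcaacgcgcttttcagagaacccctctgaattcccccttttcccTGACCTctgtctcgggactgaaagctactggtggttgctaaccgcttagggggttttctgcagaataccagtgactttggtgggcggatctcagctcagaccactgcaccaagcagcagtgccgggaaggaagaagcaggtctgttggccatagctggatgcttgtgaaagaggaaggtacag

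Dennd4b showed 2.12, 2.23 and 2.36 in PGC-1αf/f and 1.93, 2.13 and 2.41 in mPGC-1α microglia at A_55_P2085551. The groups covered nearly the same range, and the difference was -0.08 (SE 0.16, 95% interval -0.47 to 0.31), and it lay between -0.20 without mPGC-1α replicate 3 and 0.0352 without mPGC-1α replicate 1, with -0.02 for PGC-1αf/f replicate 3 left out. Its dimmer probe A_55_P2742985 gave -0.22, 0.16 and 0.46 against -0.15, -0.05 and -0.08, a difference of -0.23 (SE 0.19, 95% interval -0.68 to 0.23). Here the mPGC-1α arrays lay close together inside the range of the controls, and the difference became -0.06 once PGC-1αf/f replicate 3 was left out and -0.40 once PGC-1αf/f replicate 1 was. Dennd4c A_55_P2728383 gave -1.01, -0.77 and -0.04 in PGC-1αf/f and -0.38, -0.40 and -0.98 in mPGC-1α microglia, with a difference of 0.02 (SE 0.29, 95% interval -0.67 to 0.71). Its wide interval leaves room for a change of either sign, and its value was -0.19 if PGC-1αf/f replicate 1 was omitted and 0.30 if PGC-1αf/f replicate 3 was omitted. Dennd4c A_52_P260407, well above background on 3 PGC-1αf/f and 2 mPGC-1α arrays, gave -2.08, -2.87 and -2.69 against -2.21, -2.43 and -3.64, and differed by -0.22 (SE 0.40). The lowest of these values is that of mPGC-1α replicate 3, and the difference was 0.22 without it, 0.02 without PGC-1αf/f replicate 1 and -0.49 without mPGC-1α replicate 1. Another Dennd4c probe, A_55_P2736690, was not well above background anywhere.

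The Dennd1 genes, also called connecdenns, encode exchange factors of Rab35, which acts in the recycling of endosomes. Dennd1a A_51_P146443 gave -0.77, -0.88 and -0.88 in PGC-1αf/f and -0.82, -0.81 and -0.61 in mPGC-1α microglia. The groups overlapped, and the difference of 0.10 (SE 0.13, 95% interval -0.21 to 0.41) was among the most narrowly bounded of the family, though it was 0.03 without mPGC-1α replicate 3. When arrays were shifted by their median in place of the 75th percentile, the Dennd1a difference turned to -0.03. Dennd1c A_52_P51429 gave 1.70, 2.18 and 2.39 against 1.89, 1.94 and 1.94, a difference of -0.17 (SE 0.19, 95% interval -0.63 to 0.29) that was -0.36 if PGC-1αf/f replicate 1 was omitted and -0.02 if PGC-1αf/f replicate 3 was omitted. The same gene's A_55_P2485069 gave 0.31, 0.86 and 1.16 against 0.28, 0.77 and 0.56, a difference of -0.24 (SE 0.25) that was -0.47 with the first of these arrays omitted, -0.05 with the second omitted and -0.11 without mPGC-1α replicate 1. At both Dennd1c probes the mPGC-1α arrays were less spread out than the PGC-1αf/f arrays. Dennd1b was near background: A_55_P2633224 was not well above it anywhere, and A_52_P238953 was well above it only on mPGC-1α replicate 2, at -3.63, so no fold is given.

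Dennd5a, also known as Rab6-interacting protein 1, had the smallest SE of the Dennd genes together with Dennd1a. Its probe A_55_P2005440 gave 2.91, 2.79 and 2.98 in PGC-1αf/f and 2.86, 2.88 and 2.69 in mPGC-1α microglia. The groups overlapped, with a difference of -0.08 (SE 0.13, 95% interval -0.39 to 0.23, and -0.13 to -0.02 without 1 array). A fall as large as that of Madd A_52_P54849 lay outside the interval, as it did for every tested Dennd probe. The lowest bound among them was -1.17, for Dennd4c A_52_P260407. Dennd3, the exchange factor of Rab12, gave -4.60, -3.89 and -5.60 in PGC-1αf/f and -4.10, -3.44 and -3.51 in mPGC-1α microglia at A_51_P128499. It was well above background on 0 PGC-1αf/f arrays and on 2 mPGC-1α arrays, and mPGC-1α replicate 1 lay between the control arrays, so no fold is given. A_66_P135497 of Dennd3 was not well above background anywhere.

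**Figure D4:**
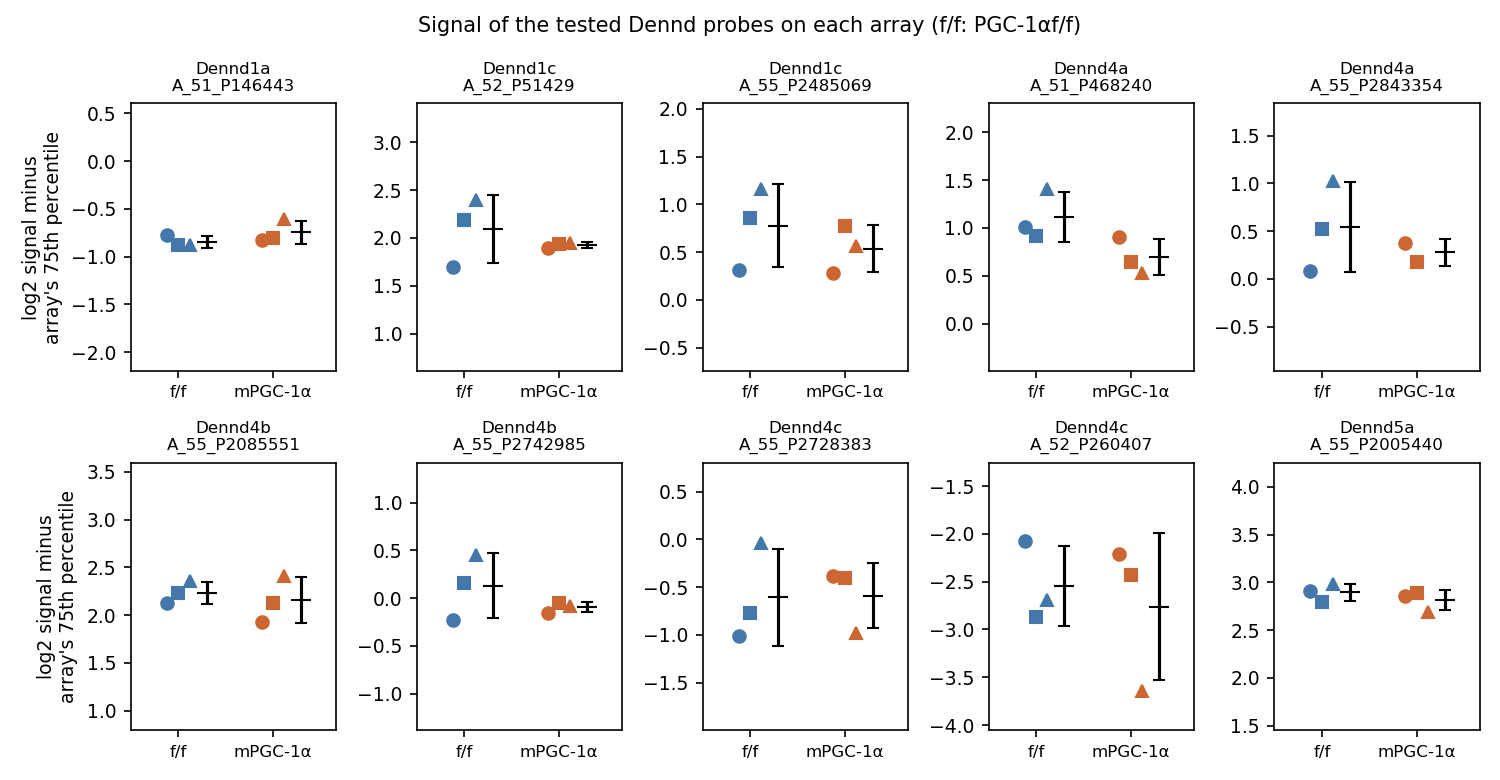
Signal of the 10 tested Dennd probes on each array, as log2 intensity minus the 75th percentile of the array, with each panel spanning the same range of log2 units. Circles, squares and triangles are replicates 1, 2 and 3 of PGC-1αf/f (f/f, blue) and mPGC-1α (orange), and black marks are the mean with its SD (n = 3, or 2 where a spot was left out). In most panels the orange points lie within or beside the blue ones, and the groups of Dennd4a A_51_P468240 touch near 0.91.

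Moreover, the genes whose signal followed that of Madd over the 6 arrays were listed, from 11564 genes well above background on all arrays. With the brighter Madd probe, the highest Pearson correlations were those of Zfpm1 (0.998), 5830454E08Rik (0.987), Plscr3 (0.987), Vmn1r65 (0.986) and Tbxas1 (0.986), and the lowest were those of Scrn1 (-0.998), Sdf4 (-0.996), Cab39l (-0.996), Dnah9 (-0.994) and Slc22a17 (-0.994). In all, 85 of the 11564 genes had a correlation of at least 0.95 with it. For A_52_P54849 there were 79 such genes, and the highest, taken after the values had been seen, were C920021L13Rik (0.998), Slc9a9 (0.996), Rab33b (0.995), Zfp712 (0.994) and Prpsap2 (0.991). The 6 points share their group difference and the scaling of each array. The tested Madd probes had a correlation of 0.63 with each other. Among the family, Dennd1c was the most like the brighter Madd probe (0.88) and Dennd4a the most like A_52_P54849 (0.80), while Dennd1a ran the opposite way to both (-0.64 and -0.49).

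To place Madd and the Dennd genes in their pathway, 85 other tested genes of Rab control and of the TNF receptor 1 complex were compared between the groups, in 7 lists. Limma called 0 of them at an adjusted p of 0.05, where 0.065% of all genes were called, and the smallest adjusted p was 0.129. At an unadjusted p under 0.05, 1 was higher and 6 were lower, where 8.16% and 5.71% of all genes were. The mean was lower in mPGC-1α microglia for 54 of the 85 genes (63.5%), where 45.9% of all genes were lower. The groups did not overlap for 15 lower genes (17.6%, beside 10.8% of all genes) and for 4 higher genes (4.71%, beside 12.2%).

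Of the 14 tested genes with a DENN domain or its close relatives that were not among the 9, 10 had a lower mean, with a median difference of -0.17 that was -0.27 if PGC-1αf/f replicate 1 was omitted and -0.07 if PGC-1αf/f replicate 3 was omitted. Dennd6a, an exchange factor of Rab14, gave 2.04, 1.95 and 2.36 in PGC-1αf/f and 1.60, 1.86 and 1.55 in mPGC-1α microglia, a difference of -0.45 (SE 0.17, limma adjusted p 0.265). C9orf72, which forms a complex with Smcr8 in autophagy, differed by -0.28 (SE 0.13, limma adjusted p 0.338). For both genes all mPGC-1α arrays lay below all PGC-1αf/f arrays.

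Of the Rab GTPases that Madd and the Dennd proteins act on, 8 were tested and 5 had a lower mean, with a median of -0.12. This median was -0.27 without PGC-1αf/f replicate 3, -0.03 without PGC-1αf/f replicate 2, -0.07 without mPGC-1α replicate 3 and -0.19 without either of the other mPGC-1α arrays. Rab39, a Rab linked to Dennd5 proteins, gave 0.31, 0.18 and 0.59 in PGC-1αf/f and -0.31, -0.38 and -0.33 in mPGC-1α microglia. The groups were apart, and the difference was -0.70 (SE 0.15, limma adjusted p 0.131), which was -0.58 without PGC-1αf/f replicate 3. Rab12, the partner of Dennd3, differed by -0.35 (SE 0.16, limma adjusted p 0.319) without overlap. Rab3a, a partner of Madd in secretory vesicles, was the non-overlapping gene with a higher mean, by 0.26 (SE 0.14, limma adjusted p 0.381), or by 0.17 without PGC-1αf/f replicate 3. Rab35 and Rab27a are named for their link to the Dennd1 genes and to Madd, with their values known, and differed by -0.18 (SE 0.13) and -0.06 (SE 0.35). With PGC-1αf/f replicate 3 left out, these became -0.12 for Rab35 and -0.37 for Rab27a, and Rab27a turned to 0.22 without mPGC-1α replicate 3 and to 0.16 without PGC-1αf/f replicate 2. Rab10, Rab6a, Rab27b and Rab3b had no tested probe with values on all arrays.

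Exchange factors without a DENN domain had a lower mean for 10 of 14 genes and a median of -0.04, which was -0.02 in the absence of PGC-1αf/f replicate 3, -0.09 in that of PGC-1αf/f replicate 1, -0.07 in that of mPGC-1α replicate 1 and -0.18 when arrays were shifted by their median. Hps4, which activates Rab32 and Rab38 as part of a complex with Hps1, differed by -0.15 and Rab3ip, which activates Rab8, by 0.18, both without overlap (SE 0.12 each, limma adjusted p 0.542 and 0.464). GTPase-activating proteins, which return Rabs to the GDP form, had a lower mean for 20 of 30 genes, with a median of -0.10 that was -0.05 without mPGC-1α replicate 3 and -0.06 in the absence of PGC-1αf/f replicate 2. Rab3gap2, a subunit of the complex that acts on Rab3, differed by -0.49 (SE 0.24, limma adjusted p 0.356), and by -0.22 without PGC-1αf/f replicate 3. Tbc1d2b differed by -0.42 (SE 0.15, limma adjusted p 0.247). Tbc1d2, an activating protein for Rab7, had a higher mean, by 0.90 (SE 0.36, limma adjusted p 0.287), but by 0.47 without PGC-1αf/f replicate 3.

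Of the 5 tested genes that add or carry the lipid anchor of Rabs, 2 had a lower mean, and Chml, a Rab escort protein, differed by -0.45 (SE 0.17, limma adjusted p 0.269). The effectors of Rab3 and Rab27 had 6 of 13 genes tested. Melanophilin (Mlph), which links Rab27a to a myosin motor, gave 1.15, 1.08 and 1.27 in PGC-1αf/f and 0.65, 0.43 and 0.27 in mPGC-1α microglia. All mPGC-1α arrays were below the controls, with a difference of -0.72 (SE 0.15, limma adjusted p 0.129). The remaining 5 effectors had higher means, and Sytl3, a synaptotagmin-like Rab27 effector, differed by 0.95 (SE 0.43, limma adjusted p 0.323), or by 0.42 without PGC-1αf/f replicate 3. The median of the effector list, 0.31, was 0.11 without that array, 0.17 without mPGC-1α replicate 1 and 0.46 if PGC-1αf/f replicate 1 was omitted. It was 0.07 when probes had to be above background on all 6 arrays and 0.54 with the average of the tested probes of each gene.

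The TNF receptor 1 complex, to which the death domain of Madd binds, had all 8 listed genes tested, and 6 had a lower mean with a median of -0.09, which was -0.18 if PGC-1αf/f replicate 1 was omitted and 0.000326 if PGC-1αf/f replicate 3 was omitted, and was -0.05 without mPGC-1α replicate 1. Tnfrsf1a itself, named for its link to Madd, gave 3.07, 3.06 and 3.13 in PGC-1αf/f and 3.16, 3.14 and 3.05 in mPGC-1α microglia, a difference of 0.03 (SE 0.12) that ran from 0.00958 to 0.0685 without 1 array. Birc2, the ubiquitin ligase cIAP1, was the only non-overlapping gene of this list and differed by -0.28 (SE 0.19, limma adjusted p 0.477), or by -0.09 without PGC-1αf/f replicate 3.

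**Figure D5:**
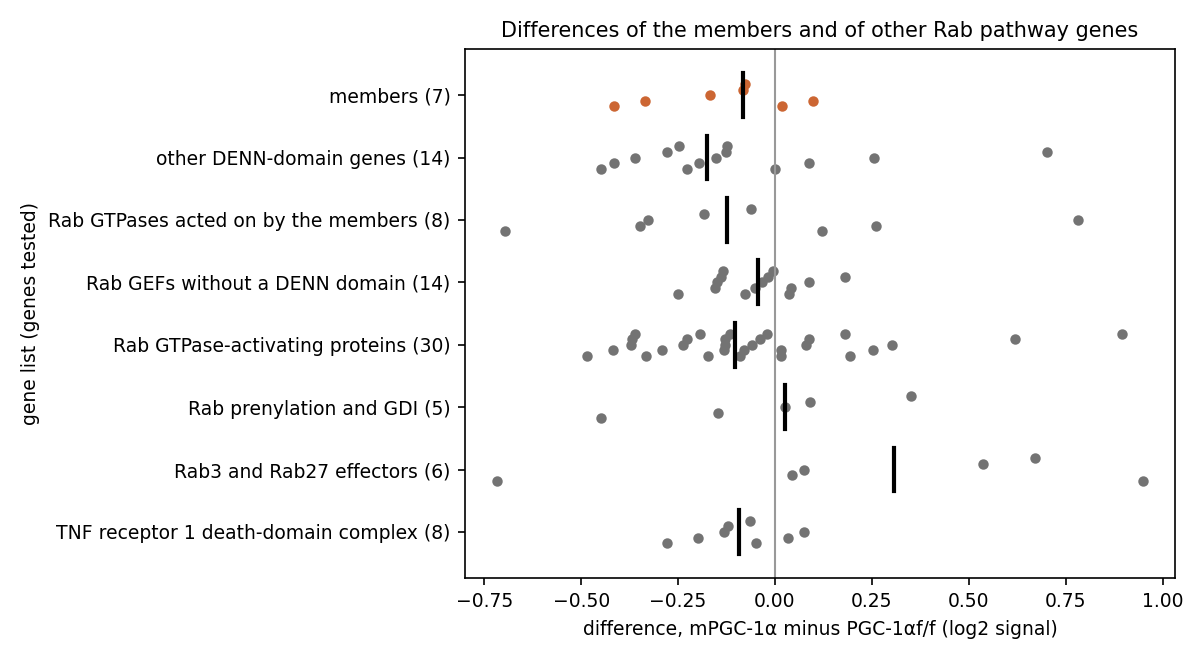
Difference between mPGC-1α and PGC-1αf/f microglia (log2 signal) for the 9 genes examined here (members, 7 tested) and for the 7 lists of pathway genes, with the brightest tested probe per gene. Points are genes, black lines are medians, and the number of tested genes stands in brackets. The medians run from -0.17 for other DENN-domain genes to 0.31 for effectors of Rab3 and Rab27, and the Madd point at -0.33 is that of its brighter probe.

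Markers of other cells in the brain were compared beside these results, because the RNA comes from selected cells whose purity was not measured here. In such bulk RNA, fewer cells of a type and less RNA per cell cannot be told apart. Oligodendrocyte markers had a lower mean for 9 of 10 tested genes, with a median of -0.66 (-0.55 without PGC-1αf/f replicate 3). Limma called 0 of them, and 6 were lower at an unadjusted p under 0.05. Over all genes, 45.9% had a lower mean and 5.71% were lower at this unadjusted p. The summed signal of the oligodendrocyte markers was taken relative to the 75th percentile. It was 18.4 to 23.9 in PGC-1αf/f and 13.0 to 15.2 in mPGC-1α microglia, without overlap. Madd A_52_P54849 separates the groups too, as do 25.2% of tested probes with values on all arrays. The brighter Madd probe does not. The mean signal of the microglial markers was also lower on every mPGC-1α array, but only just. These markers had a lower mean for 5 of 6 genes, with a median of -0.09 (-0.16 to -0.01 without 1 array). All 13 tested blood leukocyte markers had a higher mean, with a median of 1.11 that was 0.35 when PGC-1αf/f replicate 3 was left out. Their mean signal was -0.94 on PGC-1αf/f replicate 3, where it was 1.47 to 2.34 on the other arrays. The 9 tested neuronal markers summed to 14.6 to 18.8 in PGC-1αf/f and 16.8 to 19.3 in mPGC-1α microglia, with overlap. Astrocyte markers had a median of 0.07 over 7 genes, which lay between -0.10 and 0.25 without 1 array, and the neuronal median of 0.14 lay between -0.08 and 0.39. Without PGC-1αf/f replicate 3 these were -0.07 and -0.08. Endothelial and mural markers had a median of 0.64 over 6 genes, which was 0.06 without that array, 0.38 without mPGC-1α replicate 3 and 0.997 without mPGC-1α replicate 1. Cx3cr1, the locus that carries Cre, differed by -0.51 (SE 0.14, limma adjusted p 0.194) with all mPGC-1α arrays below the controls. Another Cx3cr1 probe, A_52_P99810, had values on 2 arrays per group and differed by -0.85 (SE 0.30) without overlap. Only mPGC-1α mice carry Cre in this locus, so its signal and the genotype cannot be told apart. The part of these markers in the differences at Madd and the Dennd genes was not tested.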

How the data were processed

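Expression was measured on 6 one-colour Agilent mouse arrays of microglia, 3 PGC-1αf/f and 3 mPGC-1α, grouped by the labels. The authors amplified the RNA and labelled the cDNA made from it with Cy5. The deposited scanner files hold intensity values from Agilent Feature Extraction 11.5.1.1 after background subtraction and correction of spatial trends, with flags per spot. The deposited table of the series holds the same intensity without normalization between arrays. The methods name GeneSpring for normalization and no test per gene.

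Control spots and outlier spots were left out. Log2 intensity was reduced by the 75th percentile of the array over 59305 spots. Kept were probes that every array of either group showed well above background, and 25257 of 56605 could be tested by lmFit and eBayes of limma 3.58.1 (two-sided, group as the term) in R 4.3.3 with version 1.17.8 of data.table and Benjamini-Hochberg adjustment over all of them. The brightest probe with values on all 6 arrays stood for a gene where 1 value per gene is given. Probes were named by transcript accession with RefSeq (GRCm38.p6), so that 33767 probes had 1 symbol and 22838 had none. The precision is limited by the number of arrays. Scripts were tested on simulated data. Figures used Python 3.11.15 and its packages numpy 2.4.6, pandas 2.3.3 and matplotlib 3.10.9.

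The genes, pathway lists and marker lists were chosen with earlier results of these data known. Genes were named by rule: the 9 genes with every probe, Ppargc1a and Cx3cr1, from each pathway list genes past the threshold and up to 2 with the largest rise and fall among those whose groups did not overlap, and the 5 genes with the highest and lowest correlation with the brighter Madd probe. Alternatives changed the normalization (quantile, median shift, normexp on median spot signals with an offset of 50 followed by quantile, or the values as deposited), the probe filter (none, or all 6 arrays required), the model (replicate block, slide column as random block, array weights, trended and robust eBayes) or the gene value (average of its tested probes), or leaving out each array. The values of marker lists, Ppargc1a and single pathway genes without 1 array were added after seeing the data.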

Additional observations from a re-analysis of the deposited data

How the results depend on the processing

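The difference of the Madd probe A_52_P54849 kept its sign in all 16 alternatives, from -1.42 to -1.08, but its limma adjusted p ranged from 0.00726 to 0.257 and passed the threshold in 2, the slide column as a random block (-1.28, adjusted p 0.0153) and array weights (-1.25, adjusted p 0.00726). It was not past it with quantile normalization (-1.35), a median shift (-1.42), normexp (-1.08), the deposited table (-1.32), no filter, the filter on all arrays, the replicate block and eBayes with trend and robust (-1.28 each), or without any single array (-1.35 to -1.21). The count of probes of the 9 genes past the threshold, 1 as reported, was then 0 in each of these 14. The count over all probes was 20 as reported (18 higher, 2 lower). It was 11 with quantile normalization, the median shift and normexp, 9 without a filter and 4 with the filter on all arrays. It was 15 with trended and robust eBayes, 138 with the slide column (74 higher, 64 lower) and 1100 with array weights (468 higher, 632 lower). With the deposited table it was 456 (413 higher, 43 lower). There the SE was 0.428 for each tested probe of the 9 genes with values on all arrays, so this count is not comparable with the others. Without 1 array the count was 0 to 25. Leaving out mPGC-1α replicate 3 gave 0 (unadjusted p under 0.05: 1325 higher, 2010 lower), and the count was 1 without mPGC-1α replicate 2, 2 without PGC-1αf/f replicate 2 and 11 without mPGC-1α replicate 1. With the replicate block it was 0 (unadjusted p under 0.05: 2393 higher, 2304 lower). Same-numbered arrays deviated with correlations of 0.139, 0.127 and 0.0187. As the last is close to 0, the numbers were not taken as pairs, although 5 of 6 arrays correlated best with their own number. Arrays numbered 1 and 2 shared slide columns 1 and 2, while those numbered 3 lay in columns 4 (PGC-1αf/f) and 3 (mPGC-1α). The last value thus says nothing on a dependence within columns, for which limma estimated a correlation of 0.349.

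Array weights called 1 Rab GTPase and 1 effector of Rab3 and Rab27, and 0 were called in these lists under the other alternatives. Small differences changed sign. Dennd1a turned to -0.0347 and Dennd4c A_55_P2728383 to -0.11 with the median shift, which moved the median of all probes to -0.14. The latter was -0.0175 with the deposited table and -0.19 to 0.30 without 1 array. Dennd4c A_52_P260407 was 0.23 with array weights and -0.49 to 0.22 without 1 array, and Dennd4b A_55_P2085551 was -0.20 to 0.0352. Dennd5a was 0.0277 with array weights. The median over the genes stayed below 0 in all 17 alternatives, between -0.27 (normexp) and -0.02. The median shift lowered most values, giving -0.30 and -0.37 for Dennd1c A_52_P51429 and A_55_P2485069, -0.41 for Dennd4a A_55_P2843354, -0.36 for Dennd4b A_55_P2742985 and -0.21 for Dennd5a. Normexp gave -0.33 for Dennd1c A_52_P51429 and -0.27 for Dennd5a, which was -0.18 with quantile normalization. Array weights gave -0.26 for Dennd4a A_51_P468240. Over all alternatives the list medians lay between -0.31 and -0.07 for other DENN-domain genes, -0.27 and -0.03 for Rab GTPases, -0.18 and -0.02 for exchange factors without a DENN domain, -0.24 and -0.05 for GTPase-activating proteins, -0.11 and 0.07 for prenylation genes, 0.07 and 0.54 for effectors, and -0.23 and 0.000326 for the TNF receptor 1 complex. Signals of Madd A_52_P54849 in mPGC-1α microglia, of Dennd1b and of Dennd3 lie near background, which leaves the size of their differences uncertain, and 3 arrays per group limit all of them.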
